A study of Mus musculus with 2 samples.

Results

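Macrophages of the testis were followed through 10 genes that mark these cells, chosen by symbol: *Csf1r*, *Adgre1*, *Cd68*, *C1qa*, *C1qb*, *C1qc*, *Lyz2*, *Mrc1*, *Cd163* and *Cx3cr1*. They are 10 of the 39695 gene entries in RNA-seq data of whole testes from male mice 9 days old (P9), and all of them were found. One genotype, the control, was *Bcas2*F/-, with 1 floxed and 1 deleted allele of *Bcas2* and no Cre. The other, *Bcas2*F/-;*Vasa-Cre*, had these alleles and the *Vasa-Cre* transgene as well, and is called mutant in what follows. There was 1 library of each. *Vasa-Cre* acts in germ cells, so the deletion is directed to these and not to macrophages. C57BL/6 is the strain on the sample labels, but the study's methods give a mixed background for the line. The number of mice behind each library is not given in the sources used here. A difference between single libraries cannot be set against the spread between animals, so no p-values are printed. All intervals are 95% intervals of counting error alone.

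Macrophages are the most abundant immune cells of the testis. They lie between the Leydig cells in the interstitium and, later in life, on the walls of the seminiferous tubules, where they clear debris, secrete cytokines and support steroidogenic cells and spermatogonia. They depend on colony-stimulating factor 1, which acts on the receptor encoded by *Csf1r*, and on transcription factors such as PU.1, encoded by *Spi1*, which binds purine-rich elements in the promoters of many macrophage genes.

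Levels are RPKM, the read count of a gene scaled by its length and by the size of the library, and the reads behind them could be worked back from the steps that single reads make in these values. The library sizes inferred in this way were 19918750 counted reads for the control and 19331687 for the mutant, which are the totals behind the RPKM scaling and not the numbers of reads sequenced or mapped. Reads were recovered for 96.9% of the 14831 genes whose RPKM averaged 1 or more. *Bcas2* itself stood at an RPKM of 39.5 in control and 25.7 in mutant testes. Germ cell markers such as *Dazl* (165 and 125 RPKM), Sertoli cell markers such as *Amh* (134 and 172 RPKM) and Leydig cell markers such as *Cyp17a1* (94.8 and 152 RPKM) were present in both libraries, which are labelled testes. The 6 Leydig cell markers had a median log2 ratio of RPKM + 1 of 0.20, with *Cyp17a1* alone past 1.5-fold and *Hsd3b1*, the most abundant of them, at 189 and 168 RPKM.

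Promoter sequences were examined because the members share a lineage. RefSeq windows on GRCm38.p6 ran from 250 bases before to 50 bases after the start site. Those of 7 members were examined, namely *Cd68*, *C1qb*, *C1qc*, *Lyz2*, *Mrc1*, *Cd163* and *Cx3cr1*. *Csf1r*, *Adgre1* and *C1qa* were not among the members examined, so nothing is said here about their promoters. The windows were searched on both strands for GAGGAA, the purine-rich core of many PU.1 elements. They were also searched for its complement TTCCTC, which cannot overlap with it. A box was found in 4 of the 7 genes, against 28.3% of all 32851 windows. It occurred 2 times in *Cd68*, 1 time in *C1qb*, 1 time in *C1qc* and 3 times in *Mrc1*, and these letters were not in the windows of *Lyz2*, *Cd163* and *Cx3cr1*. The windows shown are those of *Lyz2* and *C1qb*, whose counting intervals lay below no difference in mutant testes, and of *C1qc* and *Mrc1*, whose intervals included it. Capitals mark the box on either strand.
Lyz2, chr10:117282223-117282522, minus strand: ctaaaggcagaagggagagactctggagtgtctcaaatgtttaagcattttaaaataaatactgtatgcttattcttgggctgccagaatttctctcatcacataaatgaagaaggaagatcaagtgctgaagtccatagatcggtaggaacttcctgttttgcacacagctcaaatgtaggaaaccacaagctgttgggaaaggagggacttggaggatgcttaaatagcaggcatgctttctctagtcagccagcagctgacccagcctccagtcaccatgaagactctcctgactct
C1qb, chr4:136886151-136886450, minus strand: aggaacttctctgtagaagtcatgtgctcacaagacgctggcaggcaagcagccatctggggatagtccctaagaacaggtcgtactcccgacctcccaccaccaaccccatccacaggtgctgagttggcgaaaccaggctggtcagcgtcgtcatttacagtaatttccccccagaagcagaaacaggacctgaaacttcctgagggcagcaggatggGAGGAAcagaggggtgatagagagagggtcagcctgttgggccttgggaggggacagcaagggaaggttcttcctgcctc
C1qc, chr4:136892865-136893164, minus strand: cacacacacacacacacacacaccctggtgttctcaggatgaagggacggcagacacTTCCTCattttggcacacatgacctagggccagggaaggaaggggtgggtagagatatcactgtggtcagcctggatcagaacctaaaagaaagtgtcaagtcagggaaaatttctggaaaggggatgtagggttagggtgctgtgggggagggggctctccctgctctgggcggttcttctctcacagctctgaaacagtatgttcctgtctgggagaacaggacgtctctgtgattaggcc
Mrc1, chr2:14229164-14229463, plus strand: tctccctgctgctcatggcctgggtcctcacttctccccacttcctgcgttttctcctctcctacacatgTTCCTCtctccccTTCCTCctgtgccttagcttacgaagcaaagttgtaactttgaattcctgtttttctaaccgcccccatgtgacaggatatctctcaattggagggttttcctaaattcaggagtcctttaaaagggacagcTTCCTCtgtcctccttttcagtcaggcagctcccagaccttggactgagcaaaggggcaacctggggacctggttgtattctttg
In the *C1qb* window the box begins 30 bases before the start site, in the *C1qc* window 193 bases before it. The 3 boxes of *Mrc1* begin 180, 167 and 35 bases before the start site. A match of this kind describes the letters of a window and is no evidence of binding.

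None of the macrophage genes differed by 1.5-fold between the genotypes. Of the 10 genes, 7 had a lower RPKM in mutant testes and 3, *Mrc1*, *Cx3cr1* and *Cd163*, had a slightly higher one. The most strongly expressed member, *Lyz2*, was at 73.7% of its control level, *C1qb* at 73.9% and *C1qa* at 78.7%, whereas *Mrc1* was at 107%. On the scale used for all genes, the log2 ratio of RPKM + 1 in mutant over RPKM + 1 in control testes, 9 members passed the minimum mean RPKM of 1 and *Cd163* did not. Their median log2 ratio was -0.19, against 0.02 over the 14831 genes. Ratios were below 0 for 7 of the 9 members and for 6873 of the 14831 genes. The pseudocount of 1 understates the difference of genes with a low RPKM.

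Of the 9 members, 0 were lower and 0 were higher by 1.5-fold, whereas 1.69% of all genes were lower and 1.57% higher by that much. The counting interval lay wholly below no difference for 4 members, *Lyz2*, *C1qb*, *C1qa* and *Csf1r*, and wholly above it for 0 members. It spanned no difference for the other 5 and for *Cd163*. Over the 14364 genes with recovered reads, the interval lay wholly below no difference for 17.8% and wholly above it for 19.8%. An interval on 1 side of no difference was therefore common in this pair of libraries.

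**Figure D1:**
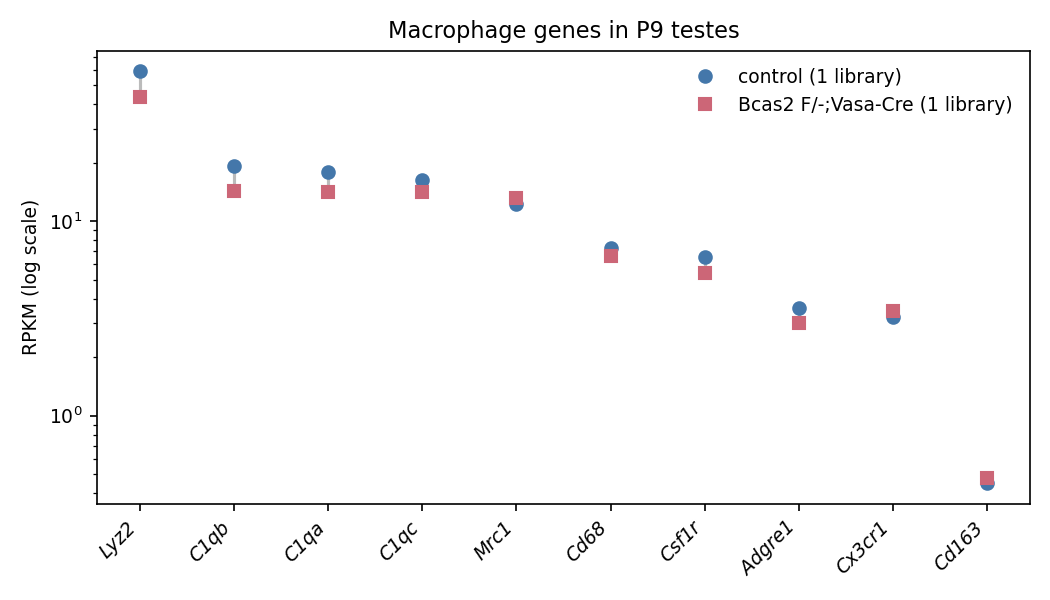
RPKM (log axis) of the 10 macrophage genes in the control library (circles) and the mutant, *Bcas2*F/-;*Vasa-Cre*, library (squares), ordered by control level, 1 library per genotype. *Lyz2* stands highest at 59.1 and 43.6, the 3 C1q genes lie between 14.2 and 19.3, and *Cd163* stands lowest at 0.45 and 0.48.

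The levels, which RPKM gives per length, spanned a wide range. The RPKM of *Lyz2* was 131 times that of *Cd163* in control and 91.4 times in mutant testes. A comparison between genes rests on the gene lengths that the authors used, which are not given. The intervals of the levels do not cover an error in these lengths. In the control library *Lyz2* came first at 59.1 RPKM. The exact Poisson interval of that level, 56.2 to 62.2, was far from the next gene. *C1qb* at 19.3, *C1qa* at 18.0 and *C1qc* at 16.3 followed, and the intervals of these neighbours overlapped. *Mrc1* at 12.3 lay below them (interval 11.4 to 13.2), apart from the 14.6 to 18.1 of *C1qc*. *Cd68* at 7.29 and *Csf1r* at 6.54 overlapped, as did *Adgre1* at 3.56 and *Cx3cr1* at 3.24. *Cd163* came last at 0.45.

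In the mutant library the order was the same down to *Csf1r* except that *C1qc* stood before *C1qa*. *C1qb*, *C1qc* and *C1qa* were nearly equal at 14.3, 14.2 and 14.2 RPKM, and *Mrc1* at 13.2 had an interval of 12.2 to 14.1 that now overlapped theirs. *Cx3cr1* at 3.47 stood above *Adgre1* at 2.99, with overlapping intervals. Among all 14831 genes, the mean level of *Lyz2* was above that of 82.5%, that of *C1qb* above 54.5% and that of *Adgre1* above 20.7%.

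*Csf1r* encodes the receptor for CSF1 and IL34, without which most tissue macrophages are not maintained. Its RPKM was 6.54 in control and 5.44 in mutant testes, from 558 and 451 reads. The log2 RPKM ratio, without a pseudocount, was -0.26 (interval -0.45 to -0.08). The gene occupies bases 61100598 to 61132149 of chromosome 18 (GRCm38, plus strand). Of its 5774 annotated exon bases, 873 (15.1%) overlap exons of *Hmgxb3* on the other strand. Whether the counting used strand is not stated, so reads of the 2 genes cannot be told apart there. *Hmgxb3* stood at an RPKM of 10.5 in control and 10.9 in mutant testes.

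The surface receptors *Adgre1* and *Cx3cr1* had similar levels and went in different directions, each within its counting error. *Adgre1*, on chromosome 17 from 57358691 to 57483527, encodes F4/80, the classical surface antigen of mouse macrophages. Its RPKM was 3.56 in control and 2.99 in mutant testes, from 226 and 184 reads, which is a log2 RPKM ratio of -0.25 (interval -0.54 to 0.03). *Cx3cr1*, on chromosome 9 from 119901616 to 120069879, encodes the receptor for fractalkine, carried by monocytes and by macrophages of many tissues. Of its 4505 annotated exon bases, 78 overlap an antisense gene. It had 3.24 and 3.47 RPKM from 222 and 231 reads, which is a log2 RPKM ratio of 0.10 (interval -0.17 to 0.37). The *Adgre1* to *Csf1r* ratio of RPKM stayed at 0.55 in both libraries.

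*Mrc1* and *Cd163* encode endocytic receptors, the mannose receptor CD206 and the receptor for haemoglobin bound to haptoglobin, and both are used to mark resident macrophages. *Mrc1*, on chromosome 2 from 14229392 to 14332057, stood at an RPKM of 12.3 in control and 13.2 in mutant testes. Its 734 and 765 reads gave a log2 RPKM ratio of 0.10 (interval -0.05 to 0.25), which does not reach the -0.44 of *Lyz2*. *Cd163*, on chromosome 6 from 124304656 to 124330527, was near the detection limit at 0.45 and 0.48 RPKM. Its 40 and 41 reads allowed log2 RPKM ratios from -0.59 to 0.74, so a 1.5-fold difference of *Cd163* was not detectable at this depth. The RPKM of *Mrc1* was 27.2 times that of *Cd163* in control and 27.6 times in mutant testes.

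*Cd68* and *Lyz2* encode proteins of the lysosome and of the secretory granule, a heavily glycosylated membrane protein and lysozyme. *Cd68*, on chromosome 11 from 69664213 to 69666153, stood at an RPKM of 7.29 in control and 6.64 in mutant testes, from 138 and 122 reads. Its log2 RPKM ratio of -0.13 had an interval of -0.50 to 0.23 and did not differ beyond counting error. *Lyz2*, on chromosome 10 from 117277331 to 117282321, had 59.1 and 43.6 RPKM from 1491 and 1066 reads. Its log2 RPKM ratio of -0.44 had an interval of -0.56 to -0.33, the narrowest of the 10 genes at the gene lengths taken here.

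Lysozyme is not confined to macrophages, since neutrophils and monocytes also express *Lyz2*. The summed RPKM of the 12 neutrophil markers was 29.5 in control and 5.74 in mutant testes, from 381 and 87 reads. *S100a9*, which encodes a calcium-binding protein abundant in neutrophils, had 101 and 4 reads, and its partner *S100a8* had 73 and 5 reads. *Ngp* had 67 and 6 reads and *Camp* 46 and 21 reads. Of the 12 markers, 5 passed the minimum mean RPKM, and 4 of these were more than 1.5-fold lower. *Ly6g* was at 0 in both libraries. The part of neutrophil RNA in the lower *Lyz2* value was not tested.

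*Lyz1*, which lies 5475 bases from *Lyz2* on the same strand, is a near copy of it. The annotated transcripts were 95.8% identical over 1264 aligned bases, and how reads matching both genes were counted is not stated. *Lyz1* had only 8 reads in control and 5 in mutant testes, so the reads of both genes added together gave a log2 ratio of -0.44, as *Lyz2* did alone.

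The genes *C1qa*, *C1qb* and *C1qc* encode the chains of C1q, the recognition subunit of the first complement component, which tissue macrophages secrete and which assembles from equal numbers of the 3 chains. They are neighbours on the minus strand of chromosome 4 and together span 18675 bases, with *C1qb* from 136880129 to 136886187, *C1qc* from 136889804 to 136893065 and *C1qa* from 136895917 to 136898803. *C1qa* stood at an RPKM of 18.0 in control and 14.2 in mutant testes, from 373 and 285 reads. *C1qb* had 19.3 and 14.3 RPKM from 418 and 300 reads. *C1qc* had 16.3 and 14.2 RPKM from 349 and 295 reads. All 3 genes were lower in the mutant library.

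The log2 RPKM ratio was -0.35 for *C1qa* (interval -0.57 to -0.12), -0.44 for *C1qb* (interval -0.65 to -0.22), and -0.20 for *C1qc* (interval -0.43 to 0.03). The differences between the 3 genes were within counting error. The log2 ratio of *C1qb* minus that of *C1qc* was -0.24 (interval -0.55 to 0.08), that of *C1qa* minus *C1qb* 0.09 (interval -0.23 to 0.41), and that of *C1qa* minus *C1qc* was -0.15 (interval -0.47 to 0.18). Added together, the C1q genes had 1140 and 880 reads, which put the log2 ratio at -0.33 (interval -0.46 to -0.20). The RPKM of *C1qc* was 0.845 times that of *C1qb* in control and 0.995 times in mutant testes.

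**Figure D2:**
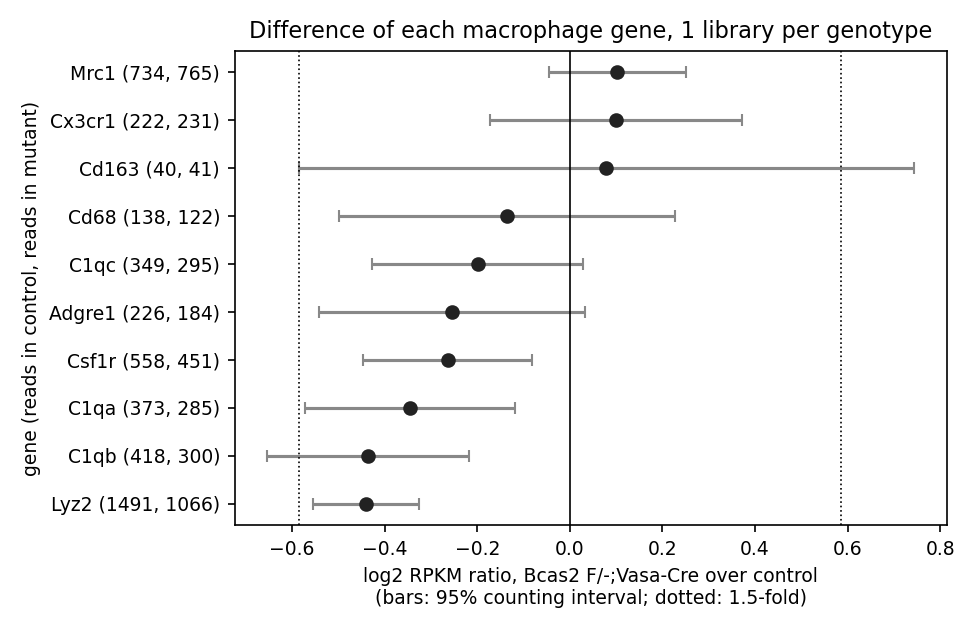
Log2 RPKM ratio of mutant over control for each of the 10 macrophage genes (points), without a pseudocount, with the 95% Clopper-Pearson interval of the reads (bars, counting error only), 1 library per genotype. The intervals of *Lyz2*, *C1qb*, *C1qa* and *Csf1r* lie below 0, and those of the other 6 genes include 0.

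A ratio between members within a library does not depend on how the libraries were scaled, so all 45 pairs of members were compared by the odds ratio of their reads. The interval of the difference in log2 ratio included 0 for 35 pairs and not for 10, and each of these 10 held *Mrc1* (6 pairs) or *Cx3cr1* (4 pairs). The intervals are not adjusted for the number of pairs, and pairs share members. The log2 ratio of *Lyz2* minus that of *Mrc1* was -0.54 (interval -0.73 to -0.36), that of *C1qb* minus *Mrc1* -0.54 (interval -0.80 to -0.27), and that of *Csf1r* minus *Mrc1* -0.37 (interval -0.60 to -0.13). *Lyz2* minus *Cx3cr1* was -0.54 (interval -0.84 to -0.24) and *Csf1r* minus *Cx3cr1* -0.36 (interval -0.69 to -0.03). *Mrc1* and *Cx3cr1* themselves had nearly the same ratio (interval of the difference -0.31 to 0.31). Among the other pairs, *C1qb* minus *Lyz2* was 0.01 (interval -0.24 to 0.25), *Csf1r* minus *Adgre1* -0.01 (interval -0.35 to 0.33), *Csf1r* minus *Lyz2* 0.18 (interval -0.04 to 0.39), and *Cd68* minus *Lyz2* 0.31 (interval -0.08 to 0.69).

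In all, the 10 genes took 4549 reads in control and 3740 in mutant testes, which is 228 and 193 of every 1000000 reads. Without *Lyz2*, the other 9 genes took 154 and 138 of every 1000000. These sums hold for the gene lengths taken here. The other possible length of *Mrc1* is longer and would give that gene more reads in both libraries, and so larger sums. In whole-tissue RNA, fewer macrophages and less of these RNAs per macrophage cannot be told apart. Markers of other testicular cells differed between the libraries as well. All 8 germ cell markers were lower, with a median log2 ratio of RPKM + 1 of -0.38, and *Stra8* at 87.3 and 56.8 RPKM was past 1.5-fold. All 7 Sertoli cell markers had ratios above 0, with a median of 0.11. The part of such shifts in the macrophage values was not tested.

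**Figure D3:**
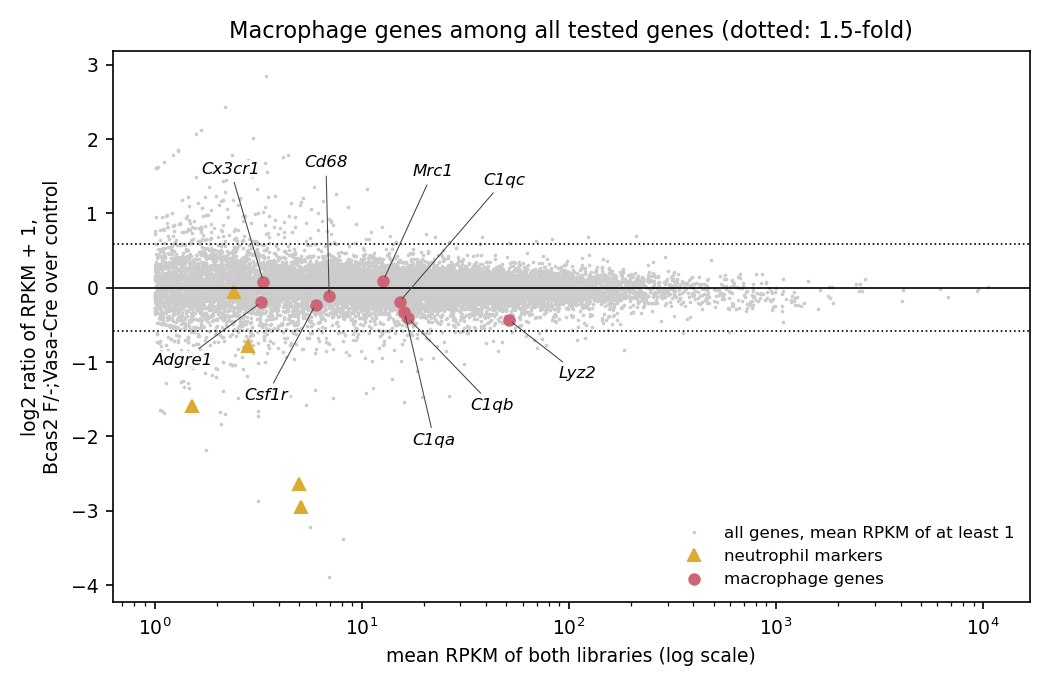
Log2 ratio of RPKM + 1 in mutant over control testes against the mean RPKM of both libraries (log axis) for all genes averaging 1 RPKM or more (grey), the 9 macrophage genes that passed (circles) and the 5 neutrophil markers that passed (triangles). The macrophage genes lie between -0.43 and 0.10, inside the dotted 1.5-fold lines, whereas 4 of the 5 neutrophil markers lie below the lower line.

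Against all genes, *Lyz2* and *C1qb* lay toward the lower end. A lower log2 ratio of RPKM + 1 was found in 3.59% of the 14831 genes for *Lyz2*, in 3.99% for *C1qb* and in 6.39% for *C1qa*, but in 67.9% for *Mrc1*. The spread over genes depends on their level. Among the 4869 genes whose RPKM averaged from 20 to 100, the class of *Lyz2*, the middle 90% of log2 ratios ran from -0.29 to 0.23, and *Lyz2* at -0.43 lay outside it. Among the 4652 genes whose RPKM averaged from 5 to 20, the middle 90% ran from -0.35 to 0.31. *C1qb* at -0.41 lay outside that range, and *C1qa* at -0.32, *Csf1r* at -0.23, *C1qc* at -0.19, *Cd68* at -0.12 and *Mrc1* at 0.10 lay inside it. *Adgre1* at -0.19 and *Cx3cr1* at 0.08 lay inside the -0.51 to 0.56 of the 4168 genes whose RPKM averaged from 1 to 5.

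Of the 15 genes of the CSF1 axis and the lineage transcription factors, *Csf1r* included, 11 passed the minimum mean RPKM, 0 were more than 1.5-fold lower or higher, and the median log2 ratio of RPKM + 1 was 0.03. *Csf1*, the ligand of the *Csf1r* product, stood at an RPKM of 11.7 in control and 11.9 in mutant testes. *Irf8*, a transcription factor of monocytes and macrophages, had 11.3 and 8.31 RPKM from 355 and 253 reads, and the interval of its log2 RPKM ratio was -0.68 to -0.21. *Maf*, a factor of resident macrophages that other testicular cells also express, had 11.8 and 12.8 RPKM.

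*Spi1*, picked because its product PU.1 is named above, had 3.52 and 3.28 RPKM from 63 and 57 reads. Of the other abundant genes of the list, *Irf5* had 7.22 and 9.02 RPKM, *Cebpa* 9.57 and 10.2, and *Csf2ra* 10.1 and 9.88.

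Of 20 other genes of mononuclear phagocytes, 18 passed, with a median log2 ratio of RPKM + 1 of -0.14, and 2 were more than 1.5-fold lower and 0 higher. The 2 lower genes were *Itgb2*, the common chain of the leukocyte β2 integrins, with 99 and 44 reads, and *Cd14*, the co-receptor for lipopolysaccharide, with 62 and 25 reads. *Itgam*, the partner of *Itgb2*, was picked after its value was seen and had 119 and 58 reads. Neutrophils and monocytes express these 3 genes too. The signalling adaptors *Tyrobp* and *Fcer1g* had 177 and 150 and 160 and 151 reads, and the protease gene *Ctss* had 256 and 211 reads, all within counting error. *Laptm5*, a lysosomal membrane protein of blood cells, had 301 and 223 reads (interval -0.65 to -0.13). *Axl*, at 295 and 325 RPKM (interval 0.10 to 0.18), and *Lgmn*, at 89.0 and 89.2 RPKM, are also expressed outside macrophages.

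Of 10 further genes of resident interstitial macrophages, 8 passed and 0 of them were past 1.5-fold. Their median log2 ratio of RPKM + 1 was 0.09, with 5 of the 8 above 0. *F13a1*, the A subunit of coagulation factor XIII, had 641 and 657 reads, and *Stab1*, a scavenger receptor, had 536 and 569. *Cbr2* had 208 and 187 reads, *Folr2*, a folate receptor of resident macrophages, 127 and 98, and *Pf4* 216 and 174, each with an interval that included no difference. *Gas6*, a ligand of the AXL and MERTK receptors that somatic cells make as well, had 108 and 117 RPKM (interval 0.06 to 0.16).

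**Figure D4:**
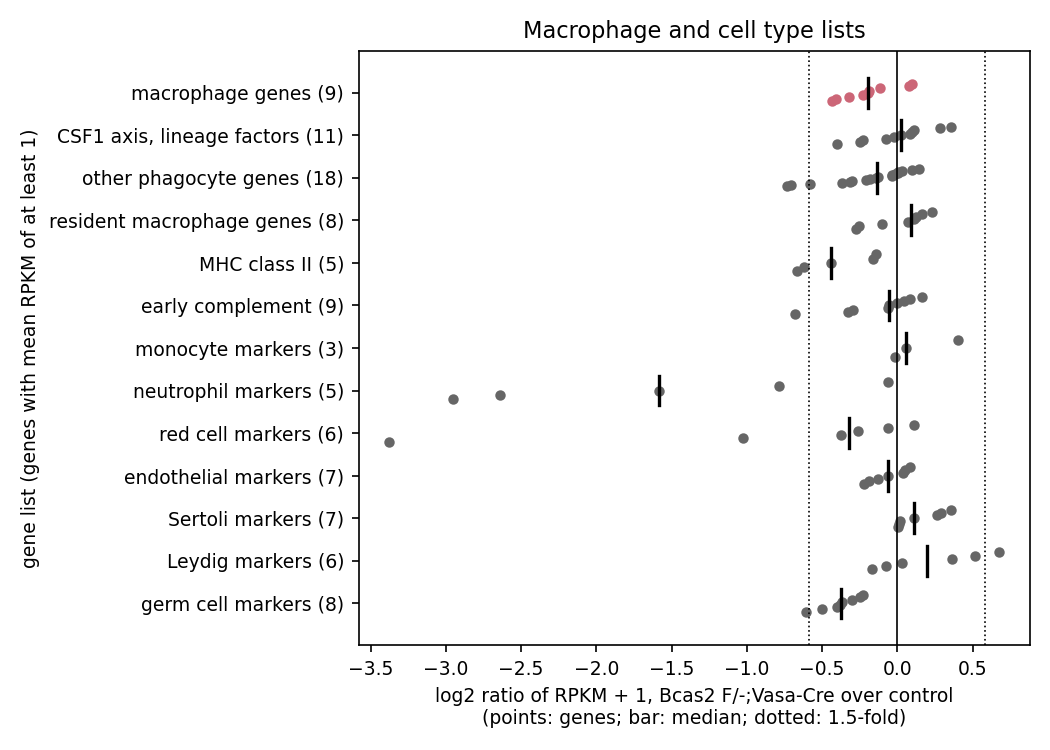
Log2 ratio of RPKM + 1 in mutant over control testes for the genes of each list averaging 1 RPKM or more (points, number in brackets) and the median of the list (bar), 1 library per genotype. The median is -0.19 for the macrophage genes, 0.09 for resident macrophage genes, -0.44 for MHC class II genes, -1.58 for neutrophil markers and -0.38 for germ cell markers.

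Genes of antigen presentation through MHC class II, which in the adult testis mark macrophages on the tubule wall, mostly had lower values in mutant testes. Of 8 genes 5 passed, all 5 had log2 ratios of RPKM + 1 below 0 with a median of -0.44, and 2 were more than 1.5-fold lower. Over all 14831 genes, 6873 had ratios below 0 and 1.69% were more than 1.5-fold lower, and among genes averaging from 1 to 5 RPKM, as these do, the lowest 5% began at -0.51. *H2-Ab1* had 4.35 and 2.37 RPKM from 68 and 36 reads, and *Cd74*, the invariant chain, had 3.79 and 2.11 RPKM from 100 and 54 reads. *H2-Eb1* had 77 and 49 reads, and its interval of -1.16 to -0.07 lay below no difference as those of *H2-Ab1* and *Cd74* did. *H2-Aa* with 108 and 92 reads and *H2-DMa* with 35 and 28 reads did not differ beyond counting error. Of the 3 genes that did not pass, *Itgax* had 11 and 18 reads, *H2-DMb1* 17 and 15 and *Ciita* 9 and 6. All of these are low counts, and B cells and dendritic cells express the same genes.

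The proteases that join C1q in the first complement component are made largely by other cells. *C1ra* had 24.2 and 25.0 RPKM (interval -0.07 to 0.16) and *C1s1* 60.0 and 67.2 RPKM (interval 0.07 to 0.26) in control and mutant testes. Picked after their values were seen, the related genes *C1rb* and *C1s2* were weaker, with 60 and 37 reads (interval -1.29 to -0.04) and 63 and 41 reads (interval -1.18 to 0.01). Of the 12 other complement genes 9 passed, with a median log2 ratio of RPKM + 1 of -0.06. Only *C4b* among them was past 1.5-fold on this scale, with 92 and 39 reads, while a pseudocount of 0.1 gave 2 such genes and a minimum mean RPKM of 5 gave 0, and reads of its near copy *C4a* could be counted on it. *C3* had 11.4 and 9.15 RPKM (interval -0.55 to -0.10). The inhibitor *Serping1* had 69.1 and 66.5 (interval -0.15 to 0.04) and *Cfp* 11.8 and 11.2 (interval -0.34 to 0.20).

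Chemokines and receptors of recruitment were mostly weak. Of 9 genes 5 passed, 0 were more than 1.5-fold lower and *Ccl12* alone was higher, with 9 reads in control and 21 in mutant testes and an interval of 0.08 to 2.58. *Cx3cl1*, the ligand of the *Cx3cr1* product, had 20.2 and 20.1 RPKM, and *Cxcl12* had 37.3 and 43.8. *Ccl7* had 24 and 17 reads. Inflammatory products were near the detection limit, as 0 of 10 genes reached a mean RPKM of 1. *Cxcl10* had 26 and 20 reads, *Il1b* 14 and 7 reads, *Ptgs2* 10 and 4 reads and *Tnf* 3 and 6 reads.

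Markers of blood cells are given beside the macrophage genes because blood remains in whole testes. The summed RPKM of 8 red cell markers was 982 in control and 944 in mutant testes, but *Slc4a1*, the anion exchanger of red cells, had 373 and 14 reads and the globin gene *Hbb-bt* 594 and 276. *Hbb-bs*, the most abundant of them, had 551 and 596 RPKM and *Hba-a1* 197 and 165. Globin genes are near copies of each other, so their separate values are uncertain. Of the 8 monocyte markers 3 passed and 0 were past 1.5-fold, with *Ace* at 20.5 and 20.2 RPKM and *Nr4a1* at 18.1 and 18.8 RPKM. Picked after their values were seen, *Plac8*, the third that passed, had 139 and 183 reads, and its interval of 0.11 to 0.77 lay above no difference, *Ly6c2*, a surface antigen of inflammatory monocytes, had 5 and 0 reads, and *Ccr2*, the receptor that brings monocytes out of the marrow, had 32 and 49 reads. The 7 endothelial markers had a median log2 ratio of RPKM + 1 of -0.06, with *Cdh5* at 18.7 and 17.9 RPKM and *Pecam1* at 9.34 and 8.45 RPKM. The part of blood cells in the macrophage values was not tested.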

How the data were processed

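Total RNA was isolated from whole P9 testes, and paired-end libraries prepared from it were sequenced, 1 per genotype. In its results the paper speaks of isolated mRNA. The authors removed adaptor and low-quality reads, aligned the rest to the mouse genome (mm10, in the submitters' processing notes) with TopHat2 2.0.9, obtained read numbers of genes from HTSeq and deposited RPKM values. The annotation and gene lengths are not given in the sources used here. A shift in RNA composition between the libraries is not removed by RPKM.

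Entries were matched by identifier to GENCODE M21 (GRCm38, the same build as mm10), which named 37692 of 39695 (95.0%). Members, lists and the rule for named genes were chosen with earlier results of these data known. Named are all members, list genes past 1.5-fold, the 6 most abundant genes at most of each macrophage list, and leading or undetected markers. Exceptions are stated, and a few list genes that the rule names are not reported here. Genes are not named by likeness of pattern, since 2 libraries give none.

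Log2 ratios used RPKM + 1 and a mean RPKM of at least 1. Library sizes came from genes with 1 annotated transcript, on which RPKM times length takes steps of 1 read. For each gene, the whole-number length nearest to its mean annotated transcript length at which both values were whole reads, to a tolerance of 1e-06 reads plus 1e-09 of the count and the rounding of the values, gave the reads. For *Cd68*, *C1qb* and *Mrc1* more than 1 length was possible. The reads of these genes, the sums that hold them and the widths of their intervals depend on the length taken. Their RPKM and log2 RPKM ratios do not. For *Mrc1* the length taken was 3007 bases, against 5374 for its longest annotated transcript. The recovery was tested only on simulated libraries in which each gene had its rounded mean annotated transcript length. Lengths far from that mean, such as 4286 bases for *Csf1r* against a mean of 2044, were not tested in this way. Intervals are Clopper-Pearson (95%) for ratios, exact Poisson for levels and exact conditional odds ratio for pairs. Alternatives were pseudocounts of 0.1 and 0.01, the scaling, the filter, the interval and the gene length. Python 3.11.15, numpy 2.4.6, scipy 1.17.1, pandas 2.3.3, matplotlib 3.10.9 and BLAST+ 2.17.0 were used.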

Additional observations from a re-analysis of the deposited data

How the results depend on the processing

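The median log2 ratio of the members lay between -0.25 with a pseudocount of 0.01 and -0.17 with RPKM rescaled to the same sum, and 0 members were past 1.5-fold in either direction under each of the 6 alternatives of pseudocount, scaling and filter. The 4 members with an interval off no difference were again 4 with 99% intervals, with reads recovered nearest to the longest transcript and with the sum of recovered reads as library size. None of the 55 alternative values of single members changed sign or left its counting interval. Those from the alternatives of the filter could not move, because a filter leaves the ratio of a single gene as it is. Of 228 counts in the other lists, 216 stayed within 1.5 times. Many of these were 0 under every setting, some in lists where hardly any gene passed, so this share says little about stability. At a minimum mean RPKM of 5, the 2 lower MHC class II genes and the 2 lower phagocyte genes were no longer counted, because their means lie under 5. The same minimum left 2 of the 4 lower neutrophil markers, 0 of the 1 lower complement gene and 0 of the 1 higher recruitment gene. Lower complement genes were 2 with pseudocounts of 0.1 and 0.01, and with a pseudocount of 0.01 the phagocyte genes past 1.5-fold were 4. Without a minimum, 4 red cell markers were lower in place of 2, and 1 alternative activation gene and 1 monocyte marker in place of 0. With RPKM rescaled, no germ cell marker was past 1.5-fold, against 1 otherwise. These scalings shift every gene by nearly the same small amount, so kept directions say little about stability. No paired analysis was possible because each genotype had 1 library and no replicate numbers. The spread between animals is not known, and *Cd163* had too few reads for a change of 1.5-fold to show.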

Other observations

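Other immune cells were sparse in both libraries. Mast cell proteases were among the better detected, with *Mcpt4* at 4.16 RPKM in control and 3.19 in mutant testes from 82 and 61 reads, *Cma1* at 3.23 and 3.37 RPKM from 69 and 70 reads, *Tpsb2* with 46 and 56 reads and *Cpa3* with 55 and 73 reads. All 4 had intervals that included no difference, and *Fcer1a* was at 0 in both libraries. Of 10 markers of T, B and NK cells 1 passed the minimum mean RPKM, *Cd4* with 29 and 27 reads, and *Cd3g* had 30 and 25 reads. Of 6 dendritic cell markers 1 passed, *Zbtb46* at 24.9 and 28.6 RPKM, which endothelial cells also express, while *Flt3* had 51 and 27 reads and *Cd209a* was at 0 in both libraries.

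Products of alternatively activated macrophages were weak as well. Of 8 genes 3 passed, with a median log2 ratio of RPKM + 1 of -0.16 and 0 past 1.5-fold. *Mgl2* and *Clec10a*, lectin receptors for galactose and its derivatives, had 76 and 61 and 33 and 27 reads. *Tgfb1* had 15.9 and 14.9 RPKM. *Arg1* had 23 and 22 reads, *Il10* was at 0 in both libraries, and *Chil3*, which neutrophils also express, had 12 reads in control and 0 in mutant testes.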
